A study of Mus musculus with 8 samples.

Results

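CD4+ T cell isolates of mice that carried a fibrosarcoma were set against those of tumour-free mice over both antibody treatments at once. All 8 arrays of the series entered, 4 from tumour-bearing and 4 from tumour-free mice, and the genes described are those whose 4 tumour-bearing values did not overlap the 4 tumour-free values. The mice were C57BL/6 in every group, and all had received CD4+ T cells carrying a transgenic receptor specific for ovalbumin (OVA), followed by immunization with dendritic cells loaded with OVA peptide. The 4 groups of 2 arrays were tumour-free with control Ab (replicates 1 and 2), MCA-OVA-bearing with control Ab (replicates 3 and 4), then, with anti-IL-6R Ab, tumour-free (replicates 5 and 6) and MCA-OVA-bearing (replicates 7 and 8). MCA-OVA stands for MCA205, a transplantable mouse fibrosarcoma, made to express OVA. Cells were taken on day 4 after immunization. The isolates hold host cells as well as transferred cells, and the ages and sexes of the mice, the number pooled per array, the tumour size and the purity of the isolates are in none of the sources read here. The antibody against the IL-6 receptor blocks signals of interleukin-6, and the question answered here is which differences between the hosts were present under both antibodies.

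CD4+ T cells give help to other cells through cytokines and surface ligands. Follicular helper T cells, which are known for interleukin-21 (IL-21), direct B cells in the lymph node and spleen to change the class of their antibody from IgM and IgD to IgG, IgE or IgA and to become plasma cells. Regulatory T cells restrain responses through receptors such as CTLA-4. Tumours are known to change the make-up of lymphoid organs, with more immature myeloid cells and more monocyte-attracting chemokines.

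Levels are log2 signals relative to the 75th percentile of the array, so 0 is the level of a fairly bright probe and a difference of 1 is a doubling. On each array 53.1% to 59.8% of the probes were well above background and no spot was saturated, while replicates 3 and 4 stand apart from the other arrays, at 53.9 and 40.7 on a first principal component that puts the other 6 between -28.5 and -1.81. The arrays lay together on 1 slide, scanned once, with the antibody groups in different slide columns and the hosts in different slide rows, so position on the slide and group cannot be told apart. The labels number the replicates and do not say that they came from separate mice or cultures, so the p-values reflect only how far these samples spread, which may be technical. With 4 arrays per host, the number of arrays limits the precision of every value. In bulk isolates, fewer cells of a type and less RNA per cell cannot be told apart. The defining markers of the labelled cells, Cd3e, Cd3d and Cd4, were well above background on all arrays, and their pooled differences between the hosts were -0.01, 0.02 and 0.00.

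Over both antibodies, the isolates of tumour-bearing mice held far more transcript of switched antibody classes, with Ighg1 higher by 5.88 ± 0.35 (SE, n = 4 and 4 arrays). Single genes known from follicular helper T cells (Il21, Ascl2, Sostdc1) and from activated and regulatory T cells (Gzmb, Klrg1, Tigit) and the chemokine genes Ccl7, Ccl8 and Ccl12 also rose. In limma's additive model of host and antibody, 161 of 21519 genes rose at an adjusted p under 0.05 (0.748% of genes tested) and 4 fell (0.0186%), and for all 165 the arrays of the 2 hosts did not overlap. Before adjustment, 1586 of the 21519 genes had a p under 0.05 in that test, in either direction. The 161 comprised 101 immunoglobulin features, 54 genes with an official-style symbol and 6 features known by clone or locus names. Arrays of the hosts did not overlap in 630 genes with higher values in tumour-bearing mice (2.93%) and in 350 with lower values (1.63%). A difference of at least 2-fold was present in 204 of the former and in 9 of the latter. Of the 161 rising genes, 16 had no probe well above background on any tumour-free array, so these 16 entered the test only through the tumour-bearing arrays and had to differ. The filter asked for both arrays of a group, so genes well above background on only some tumour-free arrays could also enter only this way.

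The 161 genes that rose were also read under each antibody. Under control Ab alone 154 of them passed the threshold, where 6.24% of all genes did, and under anti-IL-6R Ab alone 51 passed, where 0.307% did. Of the 101 immunoglobulin features, 100 passed under control Ab and 35 under anti-IL-6R Ab. Of the 54 genes with an official-style symbol, 48 passed under control Ab and only 13 under anti-IL-6R Ab. Their median difference was 1.63 under control Ab and 1.28 under anti-IL-6R Ab, and the latter was smaller in 127 of 161. None of the 165 passed limma's test of the interaction between host and antibody, with a smallest adjusted p of 0.0565. In that test 35 of the 165 had an unadjusted p under 0.05, as did 5408 of all 21519 genes. The interaction passed for 9 of all genes (0.0418%). Any interaction adds to the residual of the additive model, so a gene with unlike effects under the 2 antibodies was less likely to enter the 165, and this count says nothing about how often the effects differed.

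**Figure D1:**
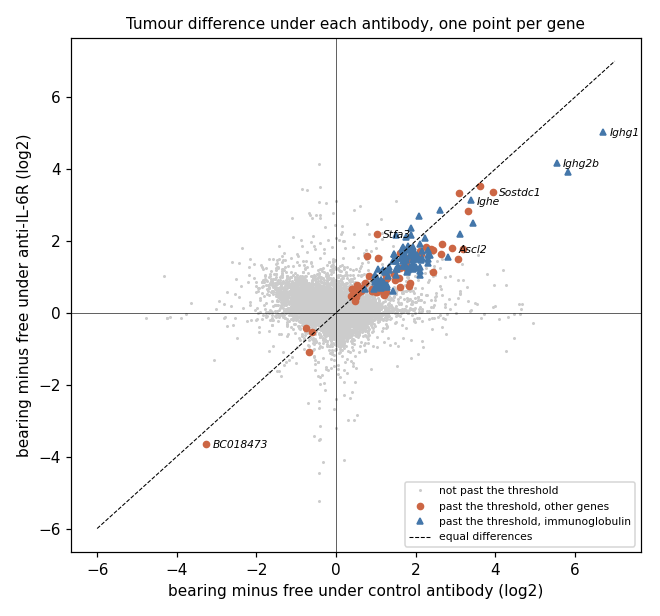
Each point is a gene, with the log2 difference (bearing minus free) for control Ab on the x axis and for anti-IL-6R Ab on the y axis. Genes past the threshold of the additive model lie in the upper right, except 4 in the lower left, and 127 of the 161 that rose lie below the line of equal differences.

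Antibody genes made up 101 of the 161 rising genes and 143 of the 630 that were higher without overlap. Among 188 immunoglobulin features, a list made from the descriptions in the files with the results known, 101 rose, none fell in limma's test (2 were lower at an unadjusted p under 0.05), and 143 had higher, non-overlapping values in tumour-bearing mice (76.1%, against 2.93% of all genes tested). Their median pooled difference was 1.40, against -0.02 over all genes tested. The constant regions show which class rose, so stretches of the probes that read them are printed here, the first 30 of 60 bases as the array files give them, on the minus strand of chromosome 12 in build mm9.
Ighg1 (chr12:114568624-114568653): tggtcaagggctatttccctgagccagtga
Ighg2b (chr12:114544768-114544797): agcaatgggcatacagaggagaactacaag
Ighg2c (chr12:114525526-114525555): ccatatccatgcatcccttgtataaataaa
Ighe (chr12:114509534-114509563): atgaggcacttcagaaacccaggaaactgg
The longest run that any pair of these 4 probes shared over their 60 bases was 7 bases. Whether a probe also reads transcripts of a related class was not tested, since the transcripts of these genes are not used here.

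Ighg1 encodes the constant region of IgG1. It stood at -3.85 and -4.76 in tumour-free mice with control Ab and at -3.19 and -3.32 in those with anti-IL-6R Ab, and 2 of these 4 arrays had it well above background. In tumour-bearing mice it stood at 2.21 and 2.62 with control Ab and at 1.75 and 1.82 with anti-IL-6R Ab. The lowest tumour-bearing array therefore lay 4.94 above the highest tumour-free array, and the pooled difference of 5.88 ± 0.35 passed the test (limma's adjusted p = 0.00053).

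Ighg2b, the constant region of IgG2b, stood between -0.99 and -0.33 on the tumour-free arrays, at 4.64 and 4.65 on the tumour-bearing arrays with control Ab, and at 3.53 and 3.99 on those with anti-IL-6R Ab. Its pooled difference was 4.86 ± 0.26 (adjusted p = 0.00046). Ighg2c, which encodes the constant region of IgG2c, rose by 4.86 ± 0.35 (adjusted p = 0.0012), and its other probes gave 5.05 and 4.91. For Ighe, the constant region of IgE, no tumour-free array was well above background, and the tumour-bearing arrays lay from -2.29 to -1.24. Ighe therefore entered the test only through these 4 tumour-bearing arrays and had to differ. The mean of these 4 was at least 4.34-fold higher than the dimmest level that could be told from background (adjusted p = 0.00053). This bound takes for each tumour-free array the higher of the probe's own signal and the lowest signal called well above background there. All 4 of these features passed the test with any single array left out.

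The classes that naive B cells carry did not show this pattern. The features for Ighm, the constant region of IgM, gave 0.23 ± 0.13 and -0.18 ± 0.07, and those for Ighd, of IgD, gave -0.31 ± 0.16 and -0.45 ± 0.18, with adjusted p from 0.60 to 0.77. Ighg3, of IgG3, differed by 2.44 ± 0.62 and did not pass (adjusted p = 0.24). Its values under control Ab were 3.04 and 2.61 against -1.70 and -0.24, and under anti-IL-6R Ab 0.65 and -0.27 against -1.65 and -0.14, so the hosts overlapped under anti-IL-6R Ab. Igha, of IgA, gave 0.84 ± 0.29 (adjusted p = 0.54). Igkc, the constant region of the kappa light chain, rose by 1.02 ± 0.11 (adjusted p = 0.0056).

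Variable segments, which form the antigen-binding part of an antibody, were higher as a group. Of 82 heavy chain variable features, 51 rose and 68 were higher without overlap, against 0.748% and 2.93% of all genes tested. All 82 pooled differences were above 0, from 0.42 to 2.97 with a median of 1.65, where 9465 of all 21519 genes were above 0. Among 87 kappa variable features 44 rose and 66 were higher without overlap, with differences from 0.20 to 2.69 and a median of 1.02. Since variable segments resemble each other, 1 probe may bind several, and these counts are not of independent genes. The largest differences among variable features past the threshold were 2.97 ± 0.49 for Ighv5-16 and 2.75 ± 0.27 for Ighv1-58 (adjusted p = 0.035 and 0.0039). Of the 101 immunoglobulin features, 57 passed with any single array left out.

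**Figure D2:**
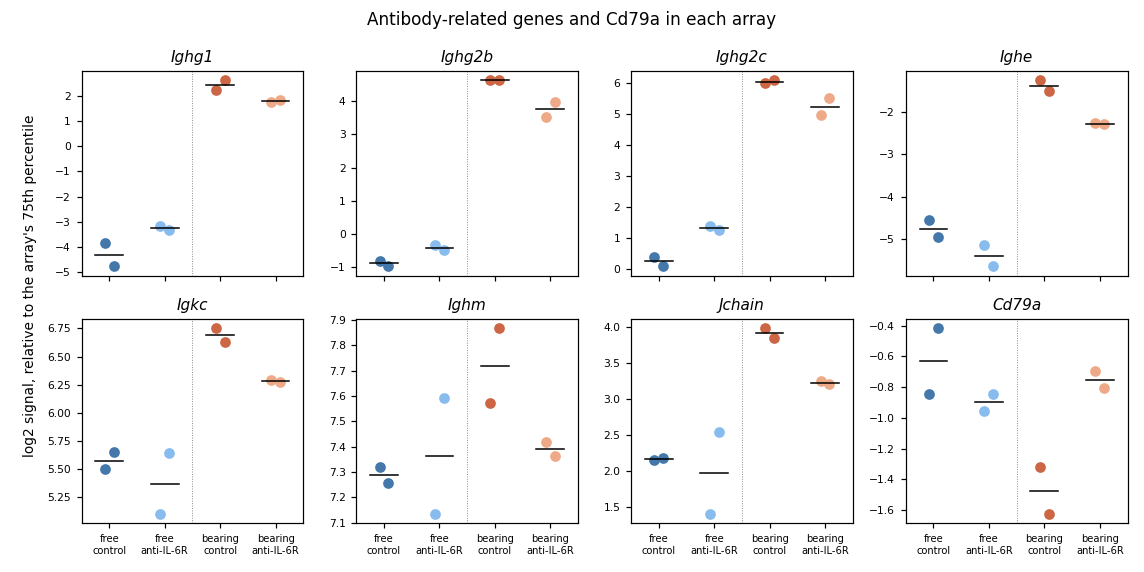
Each panel shows 1 gene, with the log2 signal relative to the array's 75th percentile on the y axis, 1 point per array and a bar at the mean of the 2 arrays in each of the 4 groups. Ighg1, Ighg2b, Ighg2c, Ighe, Igkc and Jchain have all 4 tumour-bearing arrays above all 4 tumour-free arrays, while Ighm, shown by the feature with a difference of 0.23, and the B cell marker Cd79a overlap.

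Among genes of antibody-secreting cells, Jchain, Mzb1 and Derl3 rose. Jchain, which encodes the chain that joins secreted IgM and IgA, stood at 2.15, 2.18, 1.40 and 2.54 on the tumour-free arrays, at 3.99 and 3.86 on the tumour-bearing arrays with control Ab and at 3.25 and 3.21 on those with anti-IL-6R Ab. It rose by 1.51 ± 0.22 (adjusted p = 0.022). Mzb1, an endoplasmic reticulum protein of plasma cells, rose by 0.94 ± 0.15, and Derl3, which removes misfolded proteins from that compartment, by 1.16 ± 0.17 (adjusted p = 0.026 and 0.022). In all, 3 of 11 measured plasma cell markers rose and 5 were higher without overlap, against 0.748% and 2.93% of all genes tested. The median of the list was 0.38, from 0.53 under control Ab and 0.26 under anti-IL-6R Ab. Sdc1, a plasma cell marker read beside Jchain, did not pass (adjusted p = 0.67). Its difference was 2.73 under control Ab and 0.26 under anti-IL-6R Ab, while its other probe gave 1.43 and 1.25. No tumour-free array had Sdc1 well above background, and 3 tumour-bearing arrays did. Jchain did not pass without replicate 1, 2, 3, 4 or 7 (adjusted p up to 0.12), and Mzb1 and Derl3 without replicate 1, 2, 3, 4, 5 or 7 (up to 0.13 and 0.12).

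Markers of B cells were read beside them. Cd79a and Ms4a1, defining B cell genes, gave -0.35 and -0.41, neither past the threshold, and no member of the 20 measured B cell markers rose or fell in limma's test, while 1 was higher and 4 were lower at an unadjusted p under 0.05. Among all 21519 genes tested, 1586 had such an unadjusted p, in either direction. The median over these 20 was -0.36, made up of -0.70 under control Ab and 0.03 under anti-IL-6R Ab. Their summed signal, relative to the array's 75th percentile, ranged from 95.4 to 118 on the tumour-free arrays and from 62.9 to 110 on the tumour-bearing arrays. The summed signal of the 11 plasma cell markers ranged from 35.3 to 39.3 on the tumour-free arrays and from 42.9 to 60.6 on the tumour-bearing arrays, without overlap. Which cells carried the immunoglobulin transcripts was not tested.

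Follicular helper genes rose in 5 of 23 measured members of a list of that subset, and 10 of 23 were higher without overlap, against 2.93% of all genes. The list had a median difference of 0.31, from 0.54 under control Ab and 0.08 under anti-IL-6R Ab. Il21, the cytokine gene that drives B cell help, stood at -2.04 and -2.70 in tumour-free mice with control Ab and at -2.47 and -2.30 with anti-IL-6R Ab. Its tumour-bearing values were 0.47 and 1.16 with control Ab and -0.90 and -0.33 with anti-IL-6R Ab. The hosts were 1.13 apart at the nearest arrays, and the pooled difference was 2.47 ± 0.32 (adjusted p = 0.011), while a second probe of Il21 gave 0.29. This second probe, dimmer with a mean level of -3.94, gave 0.58 under control Ab and -0.01 under anti-IL-6R Ab. Without replicate 1 or 3 the adjusted p of Il21 was between 0.051 and 0.061.

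Ascl2, a transcription factor that starts the follicular helper programme, lay from -2.61 to -2.40 on the 4 tumour-free arrays, at 0.05 and 0.60 on tumour-bearing arrays with control Ab and at -0.66 and -0.71 on those with anti-IL-6R Ab. It rose by 2.36 ± 0.23 (adjusted p = 0.0039) and passed with any single array left out. The difference was 2.92 under control Ab and 1.80 under anti-IL-6R Ab, with an adjusted p of 0.086 for the interaction.

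Sostdc1, a secreted antagonist of BMP and Wnt signals made by follicular helper cells, had the largest difference of any rising gene with an official-style symbol. Its tumour-free values were -2.09 and -4.37 with control Ab and -3.37 and -4.03 with anti-IL-6R Ab, and 2 of these arrays were well above background. These 2 were in different groups, so Sostdc1 entered the test only through the tumour-bearing arrays. The tumour-bearing values were 0.26 and 1.17 with control Ab and -0.52 and -0.16 with anti-IL-6R Ab. It rose by 3.66 ± 0.46 (adjusted p = 0.0100), or with an adjusted p of 0.060 without replicate 4. Cebpa, a transcription factor known from myeloid cells and also found in follicular helper cells, rose by 1.26 ± 0.14, and the membrane protein gene Gpm6b by 0.76 ± 0.12 (adjusted p = 0.0052 and 0.030). Gpm6b lost its call without any array but replicate 6 (adjusted p up to 0.10).

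Other follicular helper genes were separate between the hosts without passing the test. Pdcd1, which encodes the inhibitory receptor PD-1, had values from 0.95 to 1.44 on tumour-free arrays and from 1.99 to 3.02 on tumour-bearing arrays, with a difference of 1.22 ± 0.22 (adjusted p = 0.058). Icos, a costimulatory receptor, differed by 0.72 ± 0.16 and Il4 by 1.53 ± 0.36 (adjusted p = 0.15 and 0.18). For each of these 3 the difference under control Ab was larger, at 1.81, 1.16 and 2.50, than that under anti-IL-6R Ab, at 0.64, 0.29 and 0.56, with an interaction adjusted p of 0.063, 0.057 and 0.057. Lef1, a factor of naive and early follicular cells, was lower without overlap, at -0.18 ± 0.07 (adjusted p = 0.58), and its other probe gave 0.05.

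Targets of c-Maf, the transcription factor encoded by Maf, were read as a list that counts Maf itself as a member. The list was higher in tumour-bearing mice, with a median of 0.75 over 16 measured members. Of these, 3 rose (Il21, Tigit and Ctla4) and 11, Maf among them, were higher without overlap, against 0.748% and 2.93% of all genes tested. The median was 1.09 under control Ab and 0.37 under anti-IL-6R Ab. Maf itself lay from 1.43 to 1.80 on the tumour-free arrays, at 2.67 and 2.64 on the tumour-bearing arrays with control Ab and at 2.00 and 1.86 on those with anti-IL-6R Ab. The nearest arrays of the 2 hosts were 0.06 apart, and the difference of 0.63 ± 0.18 did not pass (adjusted p = 0.38). Other probes of Maf gave 0.59 and 0.78 pooled, and 0.08 and 0.40 under anti-IL-6R Ab. Il10, which encodes an anti-inflammatory cytokine, had the larger difference under anti-IL-6R Ab, 2.15 against 1.04, and a pooled difference of 1.59 ± 0.35 that did not pass (adjusted p = 0.13).

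Regulatory T cell genes had a median difference of 0.38, with 6 of 22 measured members rising and 13 higher without overlap, against 0.748% and 2.93% of all genes tested. The median was 0.64 under control Ab and 0.19 under anti-IL-6R Ab. Klrg1, an inhibitory receptor of differentiated lymphocytes, lay from 0.45 to 0.81 on tumour-free arrays and from 1.41 to 1.61 on tumour-bearing arrays and rose by 0.93 ± 0.10 (adjusted p = 0.0048), with 0.86 from its other probe. Itgae, the integrin chain CD103 that binds E-cadherin on epithelia, lay from -0.27 to -0.16 and from 0.30 to 0.53. It rose by 0.68 ± 0.08 (adjusted p = 0.0058), and its differences under control Ab and anti-IL-6R Ab were 0.66 and 0.70. Tigit, an inhibitory receptor for nectin-like ligands, rose by 1.34 ± 0.21, and Ctla4, which competes with CD28 for its ligands, by 0.78 ± 0.13 (adjusted p = 0.031 and 0.035). Foxp3, the lineage factor of regulatory cells, was separate between the hosts, from 1.51 to 1.58 against 1.67 to 1.98, but its difference of 0.32 ± 0.07 did not pass (adjusted p = 0.12). Tigit lost its call without replicate 1, 2, 3, 4, 5 or 7 and Ctla4 without any array but replicate 6, with an adjusted p of up to 0.15 for both. The lists share members, so their counts are not independent. Tigit and Ctla4 are also in the c-Maf list, Il21 is in the c-Maf and follicular helper lists, and Tnfrsf4 and Tnfrsf9 are also in the list read next. Members higher without overlap recur too. Icos, Il4 and Pdcd1 count in the c-Maf and follicular helper lists, and Il10 in the c-Maf and regulatory lists. Icos and Tnfrsf18 count again in the list read next, and Pou2af1 in the follicular helper and B cell lists.

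Costimulatory members of the tumour necrosis factor family rose in 4 of 17 measured genes, and 7 were higher without overlap, against 0.748% and 2.93% of all genes tested. Of the 4, Tnfsf4 entered the test only through the tumour-bearing arrays. The median of the list was 0.31, from 0.48 under control Ab and 0.07 under anti-IL-6R Ab. Tnfrsf9 (4-1BB) lay from 0.90 to 1.17 on tumour-free arrays and from 1.74 to 2.15 on tumour-bearing arrays and rose by 0.88 ± 0.11 (adjusted p = 0.0082), or with an adjusted p of 0.053 without replicate 1. Tnfrsf4 (OX40) rose by 0.84 ± 0.13 (adjusted p = 0.031), and without replicate 1, 2, 3, 4 or 7 its adjusted p was up to 0.15. Tnfsf4, the ligand of OX40, was not well above background on any tumour-free array, and its mean tumour-bearing level was at least 1.01-fold higher (adjusted p = 0.022). With replicate 1, 2, 3, 4, 7 or 8 left out it no longer passed (adjusted p up to 0.13). Tnfrsf1b, a receptor for tumour necrosis factor, rose by 0.40 ± 0.06 (adjusted p = 0.031), while its other probe gave 0.02, and it kept its call only without replicate 8 (adjusted p up to 0.16 without the others).

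Gzmb, the gene of the cytotoxic protease granzyme B, stood at 0.04 and 0.60 in tumour-free mice with control Ab and at 0.33 and 0.85 with anti-IL-6R Ab, and at 1.82 and 2.30, then 1.99 and 1.93, in tumour-bearing mice. It rose by 1.56 ± 0.18 (adjusted p = 0.0060) and kept its call without any single array. It was the 1 member of 15 measured cytotoxic genes that rose, where 0.748% of all genes tested did. Gzmb and Cst7 were higher without overlap, 13.3% of the list against 2.93% of all genes. Fut7, an enzyme that makes selectin ligands for homing, lay within 0.22 and 0.27 on all tumour-free arrays and from 1.11 to 1.53 on tumour-bearing arrays, and rose by 1.10 ± 0.08 (adjusted p = 0.0015). Penk, the gene of the opioid precursor proenkephalin, rose by 0.97 ± 0.08, with 0.89 from its other probe (adjusted p = 0.0018). Fut7 and Penk each passed with any single array left out.

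Th1 genes showed no such separation. Of 26 measured members, none rose or fell in limma's test and none was without overlap, while 4 were higher and 1 was lower at an unadjusted p under 0.05. Among all 21519 genes tested, 1586 had such an unadjusted p, in either direction. The median difference was 0.04. Ifng, the cytokine gene that defines Th1 cells, gave -0.17 ± 0.25, made up of -0.69 under control Ab and 0.36 under anti-IL-6R Ab, and Tbx21, which encodes their factor T-bet, gave 0.11 ± 0.15 (adjusted p = 0.93 and 0.92). No member of the Th2 list rose, though 5 of 12 were higher without overlap, against 2.93% of all genes tested. Il10 and Il4, among these 5, are also in the c-Maf list. At an unadjusted p under 0.05 in limma's test 7 of the 12 were higher, and the median of the Th2 list was 0.56. Under control Ab the Th2 median was 0.81 and under anti-IL-6R Ab 0.28. Among 25 genes of naive and quiescent T cells, 4 were lower without overlap (1.63% of all genes were), 7 were lower at an unadjusted p under 0.05, and none fell. Actn1, Btg2, Lef1 and Satb1 were these 4, with differences from -0.29 to -0.16.

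The chemokine genes Ccl7, Ccl8 and Ccl12 rose in tumour-bearing mice, named by the size of their difference and not as a list. They are neighbours in a cluster on chromosome 11 and bind receptors of monocytes and other leukocytes. For Ccl7, no tumour-free array was well above background, and the tumour-bearing levels of -2.85, -2.90, -2.82 and -2.40 had a mean at least 2.29-fold higher (adjusted p = 0.0012). Ccl7 therefore entered the test only through the tumour-bearing arrays and had to differ. Ccl8 stood at -1.45, -1.02, -0.88 and 0.06 on the tumour-free arrays and at 1.99, 2.15, 2.56 and 2.29 on the tumour-bearing arrays, and rose by 3.07 ± 0.21 (adjusted p = 0.0012). Ccl12, which 2 tumour-free arrays had well above background, rose by 3.57 ± 0.46 (adjusted p = 0.011). Ccl7 and Ccl8 passed with any single array left out, whereas without replicate 3, 4 or 7 the adjusted p of Ccl12 was between 0.051 and 0.067. The differences under control Ab and anti-IL-6R Ab were 3.10 and 3.33 for Ccl7, 3.30 and 2.84 for Ccl8 and 3.61 and 3.52 for Ccl12, with an interaction adjusted p of 0.78, 0.49 and 0.96. Ccl2, another chemokine of monocytes, was higher without overlap by 1.5 ± 0.32 and did not pass (adjusted p = 0.13). Ccl1, a chemokine made by activated T cells that binds CCR8, rose by 2.13 ± 0.31 (adjusted p = 0.020), but its other probe gave 0.11, and with replicate 1, 2, 3, 4, 5 or 8 left out it no longer passed (adjusted p up to 0.10).

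The promoters of these co-moving genes are shown to let their letters be compared, with those of Il21 beside them. Each is the 250 bases before the start in RefSeq's table for GRCm38.p6, on the plus strand for Ccl12 and Ccl8 and on the minus strand for Il21. Capitals mark TATAAA, the core of the TATA box, and TGCTGA or its reverse complement, the half-site of the Maf recognition element.
Ccl12 (chr11:82101595-82101844): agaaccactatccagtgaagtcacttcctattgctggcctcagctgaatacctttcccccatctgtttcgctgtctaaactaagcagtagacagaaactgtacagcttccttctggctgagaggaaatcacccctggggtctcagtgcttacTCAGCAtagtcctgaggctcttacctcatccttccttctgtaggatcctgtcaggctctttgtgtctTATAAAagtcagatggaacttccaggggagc
Ccl8 (chr11:82114935-82115184): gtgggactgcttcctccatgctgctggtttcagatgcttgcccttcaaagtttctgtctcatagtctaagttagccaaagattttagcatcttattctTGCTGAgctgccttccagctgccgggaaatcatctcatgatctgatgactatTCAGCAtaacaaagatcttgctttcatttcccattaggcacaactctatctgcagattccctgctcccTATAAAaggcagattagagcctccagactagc
Il21 (chr3:37232637-37232886): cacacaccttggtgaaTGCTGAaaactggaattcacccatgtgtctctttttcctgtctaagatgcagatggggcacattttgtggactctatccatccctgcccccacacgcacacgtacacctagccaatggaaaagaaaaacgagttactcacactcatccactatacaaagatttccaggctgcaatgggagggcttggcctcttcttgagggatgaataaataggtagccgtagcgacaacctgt
The promoters of Ccl12 and Ccl8 both held TATAAA, starting 31 and 32 bases before the start, and both held the Maf half-site, with a match starting 98 bases before the start in Ccl12 and matches starting 152 and 100 bases before it in Ccl8. Il21 held a half-site 234 bases before its start and no TATAAA. At the same positions Ccl12 and Ccl8 had identical bases at 36% of 250 positions, and their longest shared run was 8 bases.

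In all, 6 motifs were searched on both strands in 46 such windows of 42 rising genes and in 32851 windows of the whole table. TGCTGA was present in 26.1% of the 46 and in 16.1% of all windows. GGGANNNNCC, a form of the NF-kB site, was present in 23.9% and 17.6%, TGANTCA, the AP-1 site, in 8.70% and 6.75%, and TATAAA in 6.52% and 12.4%. TTCNNNGAA, the STAT site, was present in 6.52% and 7.02%, and GAAANNGAAA, an interferon regulatory factor site, in 4.35% and 2.98%. Any overlap between motifs was allowed, and a match is no evidence that a factor binds.

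Several single genes known from macrophages and other myeloid cells rose, though not as a list. Cd209b, a lectin of marginal zone macrophages of the spleen, lay from -0.16 to 0.51 on tumour-free arrays and from 1.54 to 2.01 on tumour-bearing arrays. It rose by 1.65 ± 0.13, with 1.64 from its other probe (adjusted p = 0.0018). Cd209f, a related lectin gene chosen after its values were seen, was lower without overlap at -1.09 ± 0.26 and did not pass (adjusted p = 0.18). Chil3, a chitinase-like protein of myeloid cells, rose by 2.07 ± 0.23 (adjusted p = 0.0053), and it and Cd209b passed with any single array left out. Trem2, a lipid receptor of macrophages, rose by 1.29 ± 0.22, and the lysozyme genes Lyz1 and Lyz2, near-identical copies that a probe may not tell apart, each rose by 0.53 ± 0.08 (adjusted p = 0.041, 0.031 and 0.031). Trem2 and Lyz1 lost their calls without 7 of the 8 single arrays, Trem2 keeping it only without replicate 2 and Lyz1 only without replicate 8, and Lyz2 without replicates 1 to 6 (adjusted p up to 0.18, 0.14 and 0.13). The complement genes Cfb and C3 rose by 0.98 ± 0.12 and 0.75 ± 0.10 (adjusted p = 0.0074 and 0.012), with 0.88 and 0.60 from their other probes, and C3 did not pass without replicate 1, 2, 4 or 7 (adjusted p up to 0.071).

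Of 23 measured macrophage and monocyte markers, 2 rose (Lyz1 and Lyz2) and 4 were higher without overlap, against 0.748% and 2.93% of all genes tested, while 8 had a difference above 0 and the median was -0.31. Adgre1 and Csf1r, the defining macrophage genes, gave -0.44 and -0.38. The summed signal of this list ranged from 360 to 454 on the tumour-free arrays and from 341 to 491 on the tumour-bearing arrays. Which cells carried the chemokine and myeloid transcripts was not tested.

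**Figure D3:**
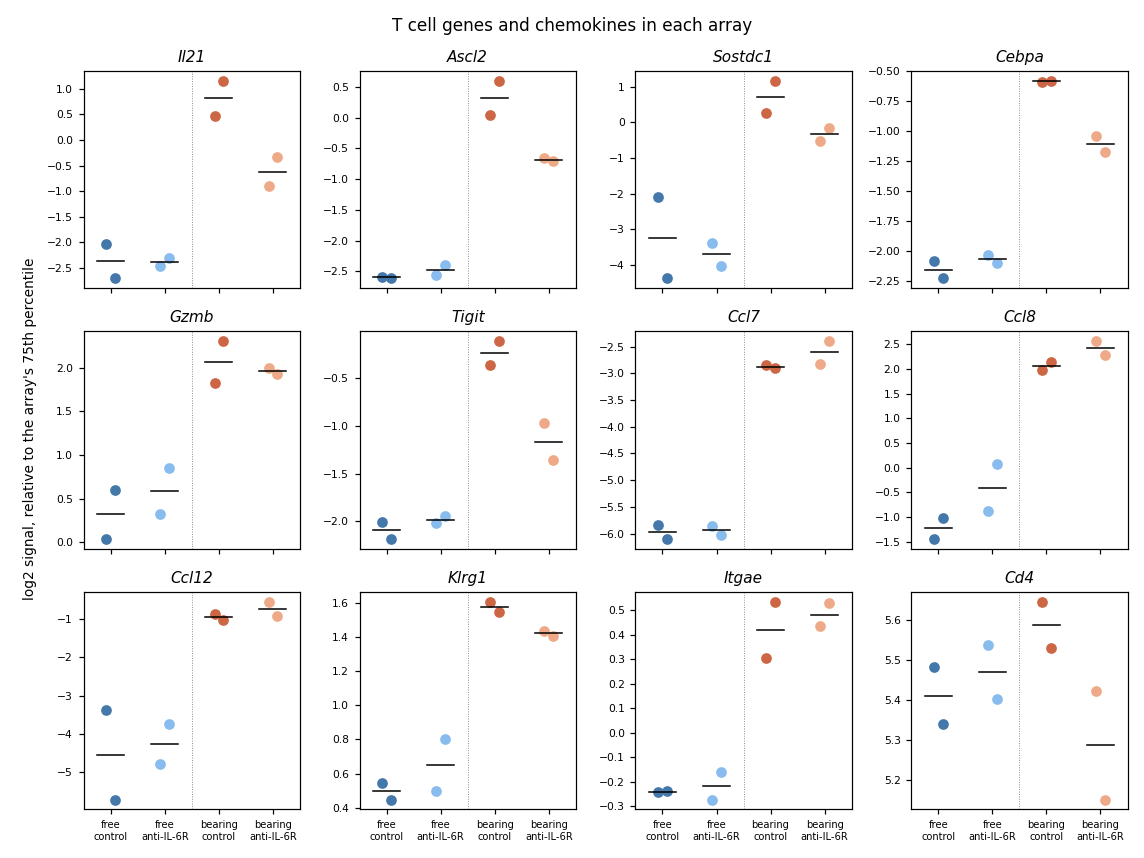
Each panel shows 1 gene, with the log2 signal relative to the array's 75th percentile on the y axis, 1 point per array and a bar at the mean of the 2 arrays in each of the 4 groups. In the first 11 panels all 4 tumour-bearing arrays lie above all 4 tumour-free arrays, by 0.47 for Itgae and 2.94 for Ccl7 between the nearest arrays, while Cd4 overlaps.

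Gjb2, a gap junction protein, rose by 1.27 ± 0.14, and Nrbp2, a protein related to kinases, by 1.15 ± 0.12 (adjusted p = 0.0056 and 0.0043). Both passed with any single array left out. Besides Ccl7 and Tnfsf4, genes with official-style symbols that no tumour-free array had well above background included Angptl2, Vat1l, Oosp1 and Egr4. These also entered the test only through the tumour-bearing arrays. Their bounds were at least 2.03-fold for Angptl2, 1.21-fold for Vat1l, 1.07-fold for Oosp1 and 1.48-fold for Egr4. Egr4, a transcription factor induced by receptor signals, did not pass without replicate 1, 2, 3 or 4 (adjusted p up to 0.095). Angptl2, a secreted angiopoietin-like protein, kept it only without replicate 7, Oosp1 only without replicate 6 or 8, and Vat1l only without replicate 5, 6 or 7, with an adjusted p of up to 0.23, 0.15 and 0.095 otherwise.

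The 4 genes that fell are all named here. BC018473, a transcript known by its clone name, stood at -0.39 and -0.39 in tumour-free mice with control Ab and at -0.02 and -2.03 with anti-IL-6R Ab. In tumour-bearing mice it stood at -2.98 and -4.31 with control Ab and at -4.45 and -4.89 with anti-IL-6R Ab, where 1 of the 4 arrays had it well above background. BC018473 therefore entered the test only through the tumour-free arrays. It fell by 3.45 ± 0.44 (adjusted p = 0.010), the largest fall of any gene past the threshold, and without replicate 1, 2 or 4 its adjusted p was between 0.053 and 0.060. Ptprk, a receptor tyrosine phosphatase expressed in thymocytes and T cells, fell by 0.88 ± 0.15, Snora74a, a small nucleolar RNA, by 0.59 ± 0.10, and the clone AK015717 by 0.58 ± 0.09 (adjusted p = 0.047, 0.035 and 0.024). Each of these 3 lost its call without at least 7 of the 8 single arrays, and the adjusted p then reached 0.21, 0.18 and 0.13. Ptprk kept it only without replicate 3 and Snora74a only without replicate 8.

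Some lists showed a pooled median that averages unlike differences under the 2 antibodies. Erythroid markers had a median of 0.63 over 39 measured members, from 1.51 under control Ab and 0.06 under anti-IL-6R Ab. None rose in limma's test, and 17 were higher at an unadjusted p under 0.05, where 1586 of all 21519 genes differed in either direction. Kel, Nfe2 and Tfrc were higher without overlap, 7.69% of the list against 2.93% of all genes. The summed signal of the erythroid markers ranged from 418 to 1069 on the tumour-free arrays and from 865 to 1413 on the tumour-bearing arrays. Neutrophil markers had 0.49 over 22 members, from 1.65 and -0.17, and 1 member, Chil3, rose, where 0.748% of all genes did. In limma's test 7 were higher at an unadjusted p under 0.05. Chil3 and Ctsg were higher without overlap, 9.09% of the list against 2.93% of all genes. The summed signal of the neutrophil markers ranged from 149 to 283 and from 177 to 242. The defining genes Ly6g, S100a8 and S100a9 gave 0.39, 0.32 and 0.32, none past the threshold.

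Genes of mitosis were above 0 in 36 of 36 members under control Ab and in 1 of 36 under anti-IL-6R Ab, with medians of 0.58 and -0.24 and no member that rose, fell, was without overlap or had an unadjusted p under 0.05 in limma's test. Genes of DNA replication (33 of 34, then 1 of 34) and of oxidative phosphorylation (39 of 40, then 0 of 40) had the same split of signs. The CD4 T cell markers themselves were above 0 in 9 of 11 and then in 0 of 11. Interferon response genes had a median of 0.15 over 49 members, from 0.25 under control Ab and 0.01 under anti-IL-6R Ab. None rose, fell or was without overlap. In limma's test 4 of the 49 were higher at an unadjusted p under 0.05, where 1586 of all 21519 genes differed in either direction. Col1a1, Col1a2 and Col3a1, the collagen genes of fibroblasts and of a fibrosarcoma, gave 0.29, -0.13 and 0.26, none past the threshold. Of 16 measured markers of a list for fibroblasts and tumour cells, none rose in limma's test, 4 were higher at an unadjusted p under 0.05, and 3 (Ccl2, Dcn and S100a4) were higher without overlap, against 2.93% of all genes, with a median of 0.25.

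**Figure D4:**
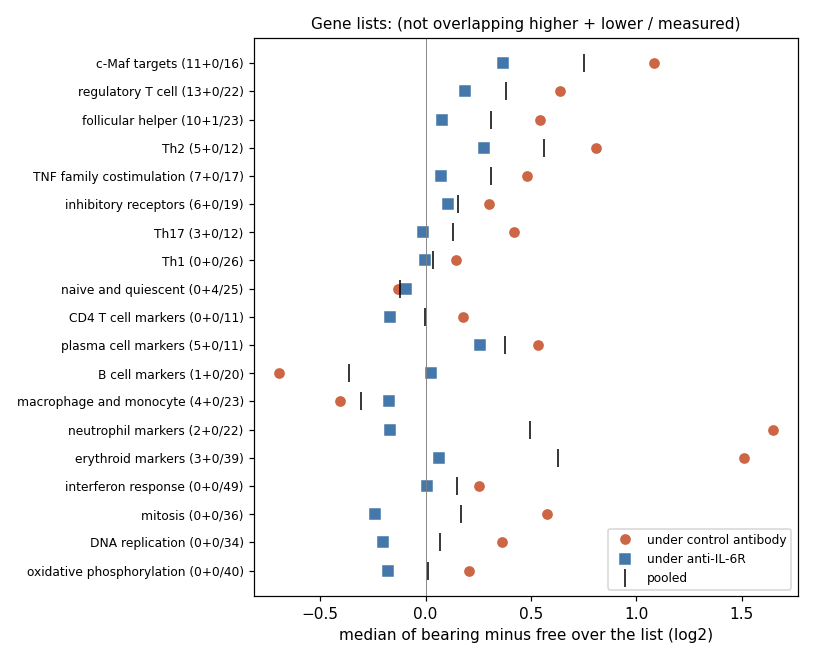
Each row is a gene list, with the median log2 difference (bearing minus free) on the x axis for control Ab (circles), for anti-IL-6R Ab (squares) and pooled (bars), and in brackets the members that were higher and lower without overlap out of those measured. The circle lies to the right of the square for c-Maf targets, at 1.09 and 0.37, and for mitosis the symbols lie on opposite sides of 0.

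Which genes passed depended on single arrays. Of the 165 genes past the threshold, 75 passed with any single array left out, among them 57 immunoglobulin features and 14 genes with an official-style symbol, which were Ascl2, Ccl7, Ccl8, Cd209b, Cebpa, Cfb, Chil3, Fut7, Gjb2, Gzmb, Itgae, Klrg1, Nrbp2 and Penk. Of these symbols, Ccl7 entered the test only through the tumour-bearing arrays. Without replicate 4 alone, 86 of the 165 lost their call. Without both tumour-bearing arrays with control Ab, which stand apart from the rest, 20 genes rose and 5 fell, 17 of them among the 165. Ighg1, Ighg2b, Ighg2c, Ighe, Ascl2, Ccl8, Cd209b, Fut7 and Penk were among those that rose. With antibody as a term, the differences of this fit rest on replicates 7 and 8 against 5 and 6 and equal those under anti-IL-6R Ab, so it is not a separate check, and it was chosen after the data were seen.

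Calls also depended on the processing. Of the 54 genes with an official-style symbol that rose and the 4 genes that fell, 35 lost their call under at least 1 of 11 other settings of normalization, filter and model, while the 14 that passed with any single array left out passed under each setting that tested them. Without the filter on dim probes 25 lost it, among them Tigit, Ctla4, Trem2, Tnfrsf4, Mzb1, Derl3, Gpm6b, Lyz1, Lyz2, Angptl2, Ptprk, Snora74a and AK015717 (limma's adjusted p from 0.051 to 0.16). Without an intensity trend 24 did, and these included Jchain, Ccl1 and Tnfrsf1b (0.051 to 0.10). After normexp background correction Tnfsf4, Oosp1, Egr4 and Tigit were among 13 (0.051 to 0.18), and quantile normalization removed 10, Tigit and Ptprk among them (0.051 to 0.076). Averaging the kept probes of a gene removed 7, including Il21 and Tnfrsf1b (0.052 to 0.96), and a model of host alone 11, including Egr4, Derl3 and Tigit (0.059 to 0.35).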

How the data were processed

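Gene expression was measured on 8 one-colour arrays with 62976 spots each, from cyanine-3 cRNA made of 0.1 ug of RNA, per the labels' protocols. The authors' scanner files hold intensity values, for which the submitters' processing notes name Agilent Feature Extraction 10.10.1.1, and the deposited table holds log2 values equal to the log2 processed signal minus the array's 75th percentile. The same scaling was recomputed here from the processed signal with control spots left out. Outlier spots (60 to 95 per array) were dropped and spots of a probe averaged. A probe was kept if well above background on both arrays of a group (32039 probes), and a gene was read by its brightest kept probe (21519 genes, 6922 with several). Names followed RefSeq where accession or symbol matched, and immunoglobulin features the file's descriptions.

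The hosts were compared in limma 3.58.1 (R 4.3.3) with host and antibody as terms, an intensity trend, two-sided tests and Benjamini-Hochberg adjustment over all 21519 genes (5 residual degrees of freedom). Values within each antibody and the interaction came from a fit of 4 group means. On simulated data with 21519 genes, this fit of the pooled difference recovered 71% of changes of 1 and 95% of changes of 2 on the log2 scale. It also called 12 unchanged genes. The simulated noise was independent, with no interaction and no arrays that stand apart, unlike these data. Replicate numbers are not shared between groups, so no block was fitted. Named genes were up to 12 per direction by pooled difference and by the smaller within-antibody difference, a set list, up to 6 per gene list by p, and up to 6 by interaction p. The comparison, the gene lists and this rule were chosen with earlier results of these data known. Alternatives covered normalization, filters, model and arrays left out. Some genes that met this rule are not reported here.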

Additional observations from a re-analysis of the deposited data

Results flagged for a closer look

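Single arrays lay far from the other 3 of their host in 7 genes past the threshold, by the share of the group's range that separates the extreme array from its neighbour. About 1 in 20 groups reaches this share by chance. Genes past the threshold numbered 165 and both hosts were read, so several such arrays arise by chance at this rate. Whether 7 genes exceed that number was not tested, and they are listed without a claim of an excess. In tumour-bearing mice the highest array stood apart in Ccl7 (replicate 8, 0.832 of the range), Miat (replicate 7, 0.914), Nrbp2 (replicate 4, 0.867) and Serpinf1 (replicate 3, 0.873). In tumour-free mice the lowest array of Lyz2 (replicate 1, 0.834) and the highest arrays of Ptprk (replicate 6, 0.894) and Stfa3 (replicate 1, 0.836) did so.

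In 9 genes the tumour effect differed between the antibodies by limma's interaction test, and none of them passed the pooled test or was without overlap between the hosts. The effect under anti-IL-6R Ab was lower than that under control Ab, on the log2 scale, by the values -4.42 for Camp, -5.34 for Ngp, -5.23 for Ltf and -2.56 for Mpo, all granule proteins of neutrophils and their precursors. It was also lower for Apol11b (-4.51), 4930523O13Rik (-4.80) and Tox2, a factor of follicular helper cells (-1.51). The other probe of Tox2 gave tumour effects of -0.36 under control Ab and -0.23 under anti-IL-6R Ab, and that of Mpo gave 2.48 and -0.15. It was higher for Firre, a long noncoding RNA, by 3.90 and for Bmf, a protein that promotes cell death, by 1.29. The other probe of Firre gave -0.13 and 0.05, and that of Bmf 0.02 and 0.22, so neither showed the difference of the probe tested.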

How the results depend on the processing

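The 165 genes past the threshold became 440 when the pooled difference was taken from 4 group means, where the interaction leaves the residual, and 124 to 236 under the other 10 settings of normalization, filter and model. With 1 array left out they numbered 81 to 186. Those that were also without overlap numbered 328 and 81 to 186. The 980 genes without overlap became 1224 to 2272 with 1 array left out, where fewer arrays need to be separate. The 9 genes with an interaction became 5 after quantile normalization, 16 without an intensity trend, 12 after normexp, 26 with a robust prior, 3 with the mean of kept probes, 1 where probes had to be well above background on all arrays, 0 without the filter on dim probes (limma, 6058 at an unadjusted p under 0.05) and 3 to 468 with 1 array left out. The cause was not tested. Without both tumour-bearing arrays with control Ab, chosen after the data were seen, 25 genes passed, 3704 were without overlap and 20 were both. No paired analysis was possible because the groups share no replicate number. Over 303 named genes, no call changed direction, but 257 calls were lost and 8 gained on leaving out an array, and 96 were lost and 72 gained under the other settings. Signals under 24.2 to 36.3, depending on the array, were not told from background.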
